A study of Mus musculus with 8 samples.

Results

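Rgs5 and 9 other genes known from pericytes, namely Rgs4, Pdgfrb, Cspg4, Kcnj8, Abcc9, Cox4i2, Higd1b, Des and Anpep, were followed in mouse lung, 10 genes of the 19937 measured. Only probe sets annotated with a single symbol counted, and of several for a gene the brightest on average would have been taken. Each of the 10 genes had 1 such probe set, so the measured level decided nothing among them. Rgs5 was selected on its difference between the stabilized and knockout arrays, which is therefore described without a test, and the other genes were chosen by their link to pericytes. In short, Rgs5 was 3.14-fold higher and Rgs4, the neighbouring gene on chromosome 1, was 1.90-fold higher in lungs with stabilized beta-catenin, and 0 of the 8 other pericyte genes passed a test that 9.62% of all genes passed, so this count alone does not set the 8 apart.

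Pericytes are the cells that wrap capillaries and share a basement membrane with the endothelium. They are recruited to vessels by PDGF from endothelial cells acting on the receptor encoded by Pdgfrb, and together with vascular smooth muscle they are called mural cells. In the lung they line the dense capillary bed of the alveoli. RGS proteins speed up GTP hydrolysis by the alpha subunits of heterotrimeric G proteins and so shorten signalling from receptors for vasoactive ligands. Beta-catenin, the product of Ctnnb1, carries canonical Wnt signals to the nucleus and also links cadherins to the cytoskeleton.

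Total RNA of whole, untreated lungs was measured on Affymetrix expression arrays in 4 mice labelled beta-catenin stabilized and 4 labelled beta-catenin knockout, all at postnatal day 21 and all recorded as male. The labels number the mice of each group as biological replicates 1 to 4, and the title of the series names expression that depends on beta-catenin as its subject. Which exons were altered, which Cre driver was used and which cells recombined is not stated in the labels. Lungs without either allele were not analysed here, and a difference can lie in either group.

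The values are log2 expression after RMA, with array medians of 5.97 to 6.03, and 1 unit is a doubling. Correlations between arrays were 0.993 to 0.996 within a group and 0.987 to 0.993 between groups. Xist, the RNA that silences an X chromosome in female cells, lay at 10.36 to 10.59 in stabilized replicates 1 and 4 and knockout replicates 1 and 3, and at 4.18 to 4.62 in the other 4 arrays, which goes against the recorded sex of 4 mice. Markers of lung epithelium were at a mean level of 10.56 to 10.63 in the stabilized and 10.65 to 10.74 in the knockout lungs, and Pdgfrb and Notch3, defining receptors of mural cells, were measured well above the array medians in every lung. Of all genes, 1917 of 19937 (9.62%) were called at an adjusted p under 0.05 (limma, Benjamini-Hochberg), 928 higher (4.65%) and 989 lower (4.96%) in stabilized lungs. That split moved to 1349 higher and 854 lower after each array was centred on its median. Without knockout replicate 3 the calls fell to 1235, without stabilized replicate 1 to 1216, and in the 4 arrays with low Xist 354 were called.

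Rgs5 encodes a small RGS protein that is abundant in pericytes and acts on Gi and Gq signalling. Its log2 level was 7.73, 7.87, 7.63 and 7.66 in the stabilized lungs, replicates 1 to 4, and 5.83, 5.97, 6.32 and 6.16 in the knockout lungs. Every stabilized lung was thus above every knockout lung, with a gap between the groups wider than the spread inside either. The group means were 7.72 ± 0.11 and 6.07 ± 0.21 (SD, n = 4 each), a difference of 1.65 on the log2 scale. Among all 19937 genes, 3 had a larger increase. In the knockout lungs Rgs5 lay close to the array medians, where background left in the values compresses fold changes, so the fold may be understated. Selection of Rgs5 on this same difference can instead overstate it, and the size of either effect was not tested. The difference was 1.68 in the 4 arrays with low Xist and 1.57 to 1.74 when each array was left out in turn.

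Rgs4 encodes a close relative of Rgs5 with the same kind of action. Its level was 7.82, 7.80, 8.01 and 7.74 in the stabilized lungs, replicates 1 to 4, and 6.82, 6.96, 7.04 and 6.85 in the knockout lungs. The groups again did not overlap, as was the case for 16.9% of all genes, with 9.06% lying wholly above in stabilized lungs. Rgs4 rose by 0.92 ± 0.08 (SE, n = 4 per group, 95% interval 0.75 to 1.09, limma adjusted p = 1.7e-05), and 37 genes had a larger increase. It was the only called gene among the 9 members other than Rgs5, that is 1 of 9, in the higher direction, where 9.62% of all genes were called and 4.65% were called higher. Because the list was put together with results of these arrays known, the p-value of Rgs4 is that of a gene that may have been picked for its difference. The call of Rgs4 held in each of the 16 alternative fits, with adjusted p of at most 0.0042, and its difference was 1.00 in the 4 arrays with low Xist.

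**Figure D1:**
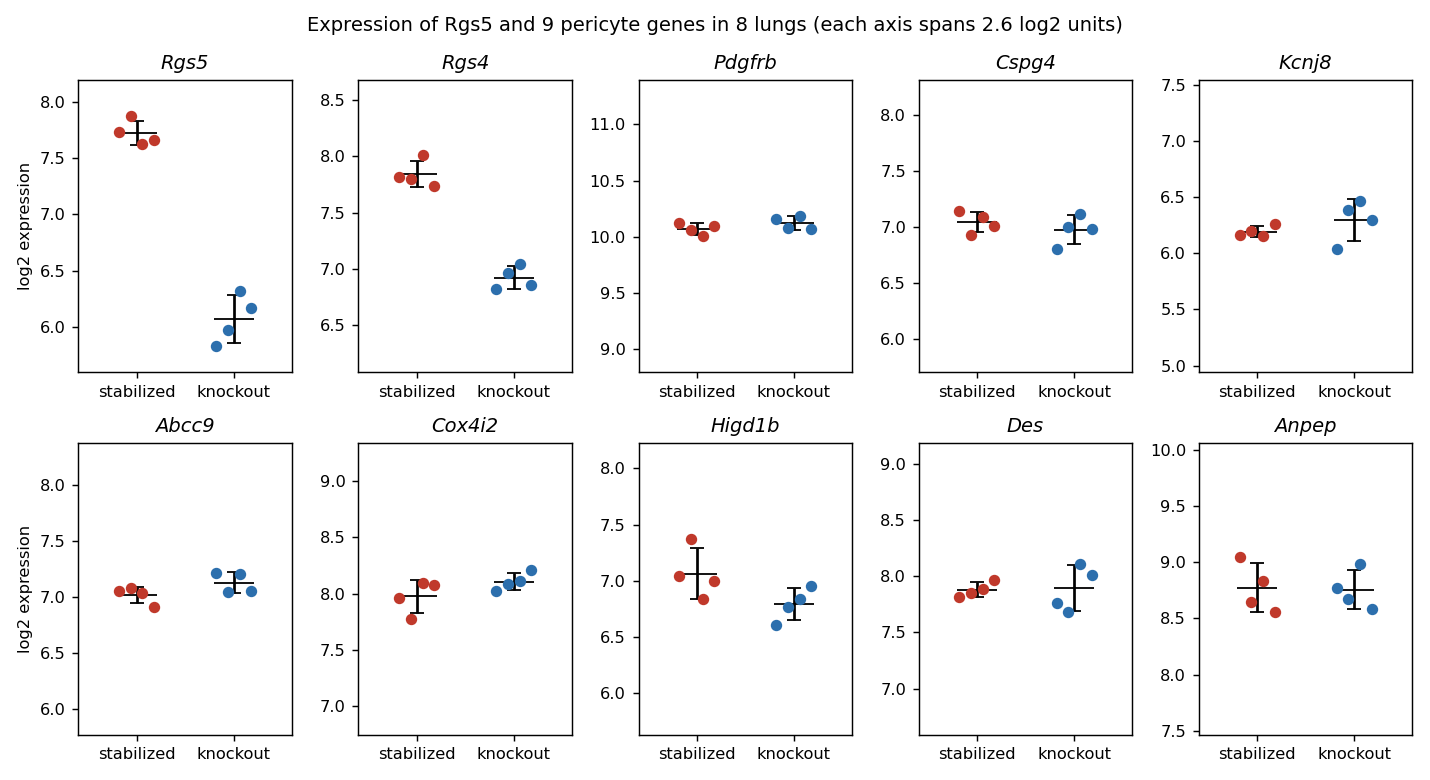
Log2 expression (vertical axis, each panel spanning the same number of log2 units) of the 10 genes in 4 stabilized (red) and 4 knockout (blue) lungs, with replicates 1 to 4 from left to right and the group mean ± SD in black. Rgs5 and Rgs4 separate into groups with no overlap, while the groups overlap in each of the 8 other genes.

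The proximal promoters of the genes that differed and of a pair that did not pass are shown to let them be compared. RefSeq promoter sequences (GRCm38.p6) were matched for 7 of the 10 members. The 250 bases before the annotated start are given 5′ to 3′ on the gene's strand, with the core motif of TCF/LEF factors, the DNA-binding partners of beta-catenin, in capitals (CTTTG, or CAAAG where it lies on the opposite strand).
Rgs5 (chr1:169655251-169655500, plus strand): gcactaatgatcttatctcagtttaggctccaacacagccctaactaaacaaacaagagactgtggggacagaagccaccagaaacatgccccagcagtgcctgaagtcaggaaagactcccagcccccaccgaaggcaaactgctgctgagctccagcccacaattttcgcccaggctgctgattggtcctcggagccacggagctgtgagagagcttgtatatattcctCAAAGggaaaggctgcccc
Rgs4 (chr1:169747643-169747892, minus strand): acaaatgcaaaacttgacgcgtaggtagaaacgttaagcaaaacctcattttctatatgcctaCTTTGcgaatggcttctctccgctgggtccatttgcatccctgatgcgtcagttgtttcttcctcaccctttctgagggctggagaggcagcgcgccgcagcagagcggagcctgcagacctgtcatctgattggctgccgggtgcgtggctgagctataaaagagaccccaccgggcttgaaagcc
Cspg4 (chr9:56864854-56865103, plus strand): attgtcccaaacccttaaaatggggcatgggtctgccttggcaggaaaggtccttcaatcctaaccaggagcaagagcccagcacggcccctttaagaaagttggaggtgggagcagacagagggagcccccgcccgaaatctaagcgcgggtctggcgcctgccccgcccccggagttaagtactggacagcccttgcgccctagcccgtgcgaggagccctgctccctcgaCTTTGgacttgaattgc
Kcnj8 (chr6:142571615-142571864, minus strand): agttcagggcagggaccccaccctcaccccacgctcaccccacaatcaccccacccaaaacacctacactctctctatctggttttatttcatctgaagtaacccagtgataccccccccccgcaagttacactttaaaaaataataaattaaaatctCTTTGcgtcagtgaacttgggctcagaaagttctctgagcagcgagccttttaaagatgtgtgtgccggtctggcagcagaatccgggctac

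Each of these 4 promoters held the core motif once, beginning 19 bases before the start in Rgs5, 187 in Rgs4, 17 in Cspg4 and 92 in Kcnj8, and it was absent from these windows of Abcc9, Des and Anpep. It occurred in 48.6% of 32851 promoter windows of the same length, searched on both strands, so its presence does not set Rgs5 and Rgs4 apart. The longer form CTTTGAT, which contains the core and occurred in 3.21% of the windows, was found in 0 of the 7 members. The motif CCAAT lay on the opposite strand beginning 67 bases before the start of Rgs5 and 57 before that of Rgs4, was found in 0 of the other 5 members, and occurred in 33.8% of all windows. TGGGAA, the motif of the Notch effector RBPJ, occurred in 21.6% of all windows and in Abcc9 alone among the 7 members. The CArG box of serum response factor, present in 1.47% of all windows, was found in 0 of the 7, and TATAAA, present in 12.4%, was found in Rgs4 alone. These matches are letters in a window and say nothing of binding.

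Rgs5 and Rgs4 follow each other on chromosome 1 with 0 measured genes between them. Of 20 measured genes, 10 on each side of the pair, 2 were higher, 1 was lower and 17 did not pass, with a median difference of 0.02 and a range of -0.65 to 0.36, against 9.62% called among all genes. In 4 of the 20 the groups did not overlap, against 16.9% of all genes. Nuf2, a kinetochore protein gene and the nearest measured neighbour of Rgs5, rose by 0.36 ± 0.08 (SE, n = 4 per group, limma adjusted p = 0.020), a call lost when stabilized replicate 1 or either of knockout replicates 3 and 4 was left out (highest adjusted p = 0.068). Ccdc190, the nearest on the far side of Rgs4, differed by 0.15 ± 0.08 (SE, adjusted p = 0.28). The other called genes of this stretch, chosen after their values were seen, were Tmco1 at 0.26 and Sh2d1b1 at -0.65, and single arrays decided both calls. Leaving out an array ended the call of Tmco1 in all cases but those without stabilized replicate 2 or knockout replicate 4, and Sh2d1b1 in all but those without stabilized replicate 1 or knockout replicate 4. The largest increase among the 20 was 0.36, against 0.92 for Rgs4, which may have been picked for its difference. Only 37 of all 19937 genes had a larger increase than Rgs4, so most genes would lie below it.

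**Figure D2:**
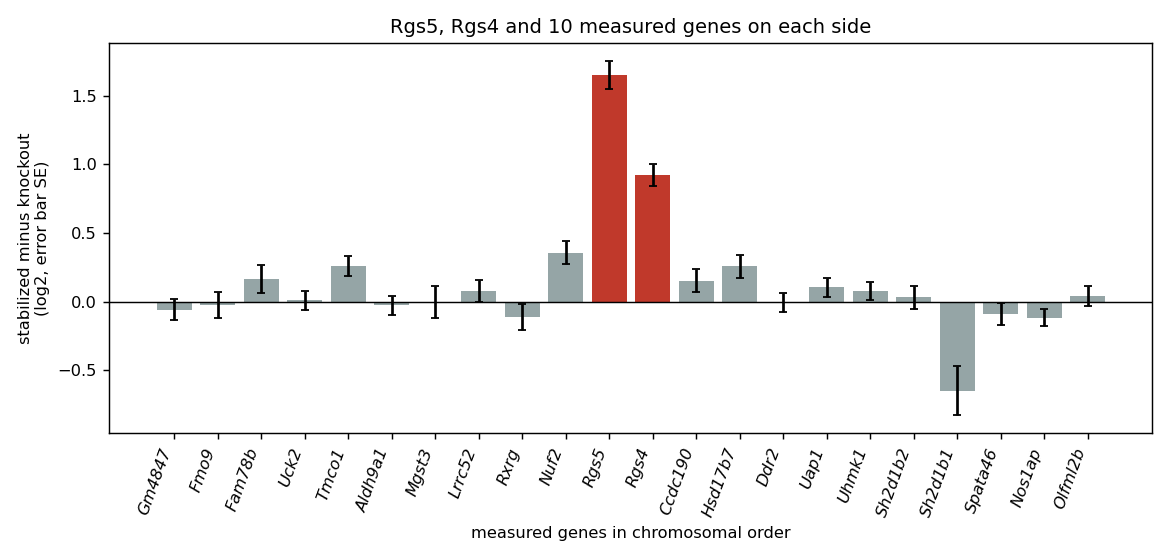
Differences between stabilized and knockout lungs (log2, bars, with SE) for Rgs5, Rgs4 and the 10 measured genes on each side in chromosomal order. Rgs5 at 1.65 and Rgs4 at 0.92 stand above the 20 neighbours, which range from -0.65 to 0.36. Rgs5 was selected on its difference and Rgs4 may have been, so the gap is described with no test.

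Pdgfrb encodes the receptor through which endothelial PDGF-B recruits and keeps pericytes. Its level was 10.12, 10.06, 10.002 and 10.10 in the stabilized lungs, replicates 1 to 4, and 10.16, 10.07, 10.18 and 10.07 in the knockout lungs. The groups overlapped, and the difference of -0.05 had a 95% interval of -0.18 to 0.08 (limma adjusted p = 0.67). Cspg4, which encodes the NG2 proteoglycan of the pericyte surface, was at 7.14, 6.93, 7.09 and 7.01 in the stabilized lungs, replicates 1 to 4, and at 6.81, 6.9995, 7.12 and 6.98 in the knockout lungs. Its difference was 0.07 (95% interval -0.10 to 0.24, adjusted p = 0.63). The upper bounds of both surface markers lie below 0.75, the lower bound of Rgs4, a gene that may have been picked for its difference.

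Kcnj8 and Abcc9 encode the pore and the sulfonylurea receptor subunit of the vascular ATP-sensitive potassium channel, and they also lie next to each other, on chromosome 6. Kcnj8 was at 6.16, 6.20, 6.15 and 6.26 in the stabilized lungs, replicates 1 to 4, and at 6.03, 6.39, 6.46 and 6.30 in the knockout lungs, a difference of -0.10 (95% interval -0.29 to 0.09, limma adjusted p = 0.52). Abcc9 was at 7.05, 7.08, 7.03 and 6.91 against 7.21, 7.04, 7.20 and 7.05, a difference of -0.11 (95% interval -0.26 to 0.04, adjusted p = 0.36). The knockout lungs were the more variable for Kcnj8, and the groups overlapped in both genes. The paralogues Kcnj11 and Abcc8, subunits of the channel of pancreatic beta cells, differed by -0.16 and -0.06 (adjusted p = 0.24 and 0.65), and 0 of these 2 passed, also at an unadjusted p under 0.05. Both had a mean log2 level under 6, where a change is harder to see. Among flanking genes of the Kcnj8 and Abcc9 pair, Ldhb, a lactate dehydrogenase subunit, fell by 0.52 ± 0.06 (SE, adjusted p = 1.8e-04) and 5330439B14Rik differed by -0.15 (adjusted p = 0.37).

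Cox4i2 and Higd1b encode mitochondrial proteins that are enriched in lung pericytes. Cox4i2, the lung isoform of cytochrome oxidase subunit 4, was at 7.96, 7.78, 8.09 and 8.08 in the stabilized lungs, replicates 1 to 4, and at 8.03, 8.08, 8.11 and 8.21 in the knockout lungs, with a difference of -0.13 (95% interval -0.30 to 0.05, limma adjusted p = 0.36). Higd1b, a member of the hypoxia-inducible domain family, was at 7.04, 7.37, 6.84 and 6.996 in the stabilized lungs, replicates 1 to 4, and at 6.61, 6.77, 6.84 and 6.95 in the knockout lungs. Its difference of 0.27 (95% interval 0.04 to 0.51, 1.21-fold) was the largest among the 8 members other than Rgs5 and Rgs4, but it did not pass over all genes (adjusted p = 0.14) and the groups overlapped. Without stabilized replicate 2, its highest array, the difference was 0.17. The paralogues with broad expression, Cox4i1 and Higd1a, differed by -0.08 and -0.00019 (adjusted p = 0.56 and 0.999), and 0 of 4 measured genes of the Cox4, Higd and Ndufa4 families passed, with 2 at an unadjusted p under 0.05, of which Higd2a had the smaller (-0.16, adjusted p = 0.17).

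Des encodes desmin, the intermediate filament of muscle cells and pericytes. It was at 7.81, 7.85, 7.89 and 7.97 in the stabilized lungs, replicates 1 to 4, and at 7.76, 7.69, 8.11 and 8.01 in the knockout lungs, with a difference of -0.01 (95% interval -0.21 to 0.19, limma adjusted p = 0.95). Cardiac muscle, which sheathes the pulmonary veins of mice, also makes desmin. Of 12 cardiac muscle genes 6 fell and 0 rose, where 4.96% of all genes were called lower. Ryr2, Pln and Actc1 fell by 0.63, 0.85 and 0.35 (adjusted p = 4.3e-04, 0.0029 and 0.014), the call of Actc1 being lost without knockout replicate 3 (adjusted p = 0.0501). The mean level of the cardiac list was 7.44 to 7.61 in stabilized and 7.81 to 8.39 in knockout lungs. When each array was left out 4 to 8 genes were called, and 0 in the 4 arrays with low Xist, 2 per group. There Ryr2, Pln and Actc1 differed by -0.52, -0.72 and -0.33, and with Xist as a covariate their calls held. The part of cardiac muscle in the values of Des was not tested. Of 5 genes for filament partners of desmin, Synm, which encodes synemin, rose by 0.35 ± 0.08 (SE, limma adjusted p = 0.013). The other 4 did not pass, where 9.62% of all genes were called. Of 8 skeletal muscle genes 0 passed, and Tnnt3 had the smallest p (-0.19, adjusted p = 0.13). The mean log2 level of 5 of the 8 was under 6, where a change is harder to see.

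Anpep encodes aminopeptidase N, the CD13 antigen, which pericytes share with myeloid cells and some epithelia. Its level was 9.05, 8.65, 8.83 and 8.56 in the stabilized lungs, replicates 1 to 4, and 8.77, 8.67, 8.99 and 8.59 in the knockout lungs. The difference was 0.02 with a 95% interval of -0.22 to 0.26 (limma adjusted p = 0.94), and the spread within the groups was larger than the difference. Of 10 myeloid genes, Mrc1 and Lyz2, genes of macrophages, rose by 0.43 and 0.21 (adjusted p = 0.0075 and 0.046) and 8 did not pass. Of all genes 9.62% were called and 4.65% were called higher. The call of Lyz2 was lost whenever 1 array was left out, other than stabilized replicate 4 (highest adjusted p = 0.12). The myeloid list had a mean level of 8.38 to 8.53 in stabilized and 8.20 to 8.41 in knockout lungs, and its part in the values of Anpep was not tested.

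Set side by side, the 8 members other than Rgs5 and Rgs4 had differences of -0.13 to 0.27, 3 above and 5 below 0, with a median of -0.03 against -0.01 for all genes. At an unadjusted p under 0.05 in limma 1 of the 8, Higd1b, would have passed, and 0 passed after adjustment in any of the 16 alternative fits, where 9.62% of all genes were called in limma, so a count of 0 among 8 is near the share over all genes. The highest upper bound of their 95% intervals was 0.51, below the lower bound of 0.75 for Rgs4, which may have been picked for its difference. Their mean log2 level was 7.79, 7.74, 7.74 and 7.74 in the stabilized lungs, replicates 1 to 4, and 7.67, 7.71, 7.88 and 7.77 in the knockout lungs, so the groups overlapped. In whole lung, fewer cells of a type and less RNA per cell cannot be told apart.

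**Figure D3:**
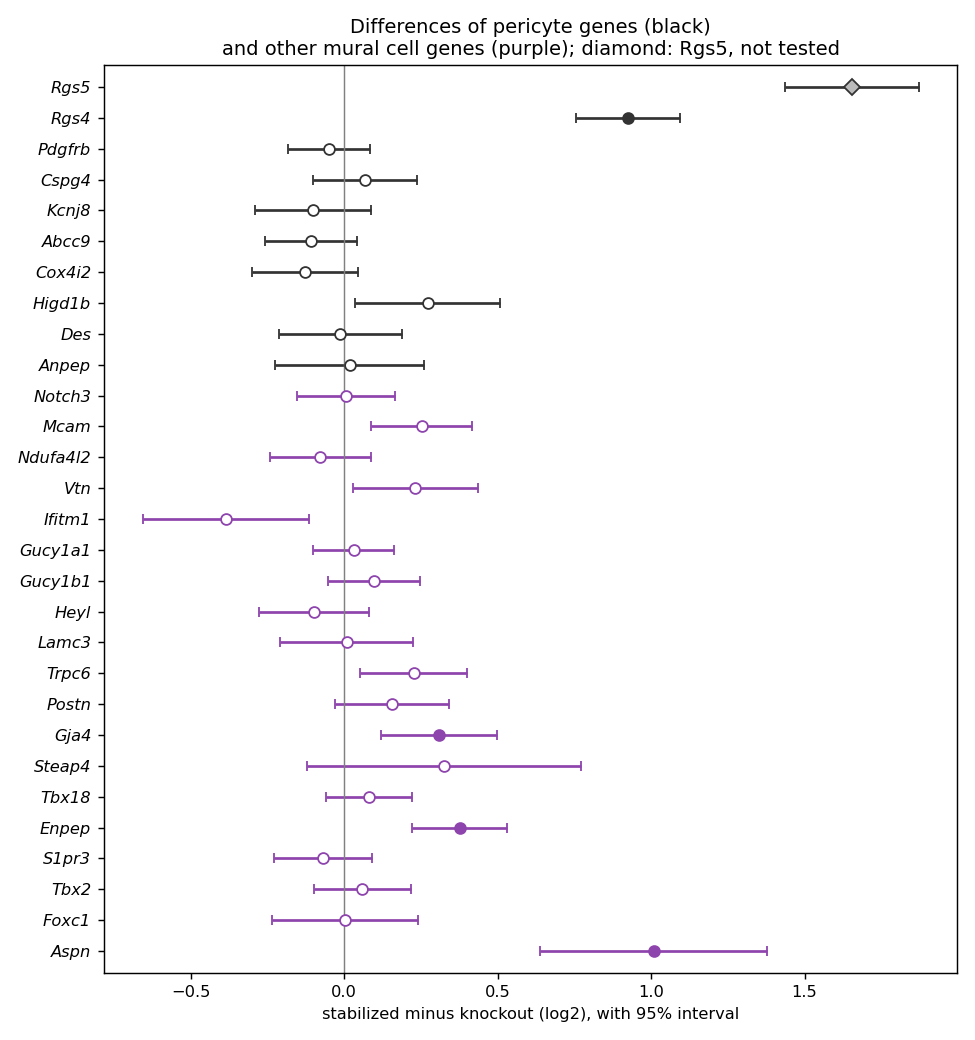
Differences between stabilized and knockout lungs (log2, horizontal axis) with 95% intervals from limma for the 10 members (black) and 19 other mural cell genes (purple). Filled circles passed an adjusted p of 0.05, open circles did not, and the diamond marks Rgs5, given without a test. The 8 members below Rgs5 and Rgs4 lie between -0.13 and 0.27.

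Whether Rgs5 moved with the other members was asked within the groups, on deviations from the group means, which do not contain the difference between the groups. Higd1b had the highest correlation with Rgs5 over the 8 arrays (Pearson r = 0.76, exact permutation p = 0.014, Spearman rho = 0.81, exact permutation p = 0.017, both two-sided with arrays exchanged within groups). Adjusted over the 9 pairs the exact permutation p was 0.13 for Pearson's r and 0.16 for Spearman's rho, so 0 of 9 pairs passed, and 1 of 9 had an unadjusted p under 0.05. The smallest p these 576 arrangements allow is 0.0017. Without knockout replicates 1 and 3, whose deviations of Rgs5 were the largest (-0.24 and 0.25), r with Higd1b was 0.94 over the 6 arrays left. It was 0.73 without knockout replicates 1 and 2, the farthest from the median level of Rgs5.

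The other 8 correlations with Rgs5 ranged from -0.13 for Cox4i2 to 0.70 for Des. Des and Kcnj8 followed Higd1b, at r = 0.70 and r = 0.68 (exact permutation p = 0.23 and 0.19, adjusted p = 0.69 for each), with rho = 0.71 and 0.50 (exact permutation p = 0.25 and 0.34). Without knockout replicates 1 and 3 these r values became 0.35 and -0.35, and without knockout replicates 1 and 2 they became -0.11 and 0.41. Both relations thus depended on which arrays were left out. Cspg4 was at r = 0.48 and rho = 0.38 (exact permutation p = 0.34 and 0.46), and at r = -0.54 without knockout replicates 1 and 3. Rgs4, the gene that differed between the groups as Rgs5 did, had r = 0.25 and rho = 0.17 with it inside the groups (exact permutation p = 0.56 and 0.71), and leaving out 1 array moved r between -0.18 and 0.66, and leaving out knockout replicates 1 and 3 to -0.51. Pdgfrb, Abcc9 and Anpep lay at r = 0.15, 0.18 and 0.19 and rho = 0.29, 0.17 and 0.05 (adjusted exact permutation p = 0.73 each for r, and 0.91, 0.91 and 0.97 for rho), and at r = 0.13, 0.53 and -0.19 without knockout replicates 1 and 3. Cox4i2, at r = -0.13 and rho = 0.02 (exact permutation p = 0.70 and 0.97), was at r = -0.57 without them. Without knockout replicates 1 and 2, r was -0.01 for Rgs4, -0.21 for Cspg4 and -0.96 for Cox4i2. It was then 0.47 for Pdgfrb, 0.73 for Abcc9 and 0.22 for Anpep.

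Of the 9 correlations with Rgs5 over the 8 arrays, 8 were above 0, with a median of 0.25. Of all other genes 44.2% had an r above 0, with a median of -0.07. The positive values rested in part on knockout replicates 1 and 3. Without them r was -0.51 for Rgs4, -0.54 for Cspg4, -0.35 for Kcnj8, -0.57 for Cox4i2 and -0.19 for Anpep. The mean deviation of the 9 members had r = 0.80 with Rgs5, described with no test and not computed without those arrays. Means of the wider gene lists ranged from r = -0.58 for other RGS genes to 0.63 for fibroblast genes. Genes for signals between pericytes and endothelium were at 0.56, and endothelial and other mural cell genes at 0.47 each, so a positive r was not particular to the members. Of all other genes, 1.62% had an r with Rgs5 at least as high as Higd1b, 2.95% as high as Des, 3.32% as high as Kcnj8 and 24.2% as high as Rgs4. Across all pairs among the 10 members, 32 of 45 correlations of deviations were above 0, with a median of 0.20 and a range of -0.59 to 0.76, and the 36 pairs without Rgs5 had a median of 0.19. These pairs share the same 8 arrays. The widest spread within groups was that of Anpep, with a pooled SD of 0.20, followed by Higd1b at 0.19 and Rgs5 at 0.17, and the narrowest was that of Pdgfrb at 0.06. The median over all genes was 0.11, above Pdgfrb and Abcc9 (0.08) and near Rgs4 (0.11).

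**Figure D4:**
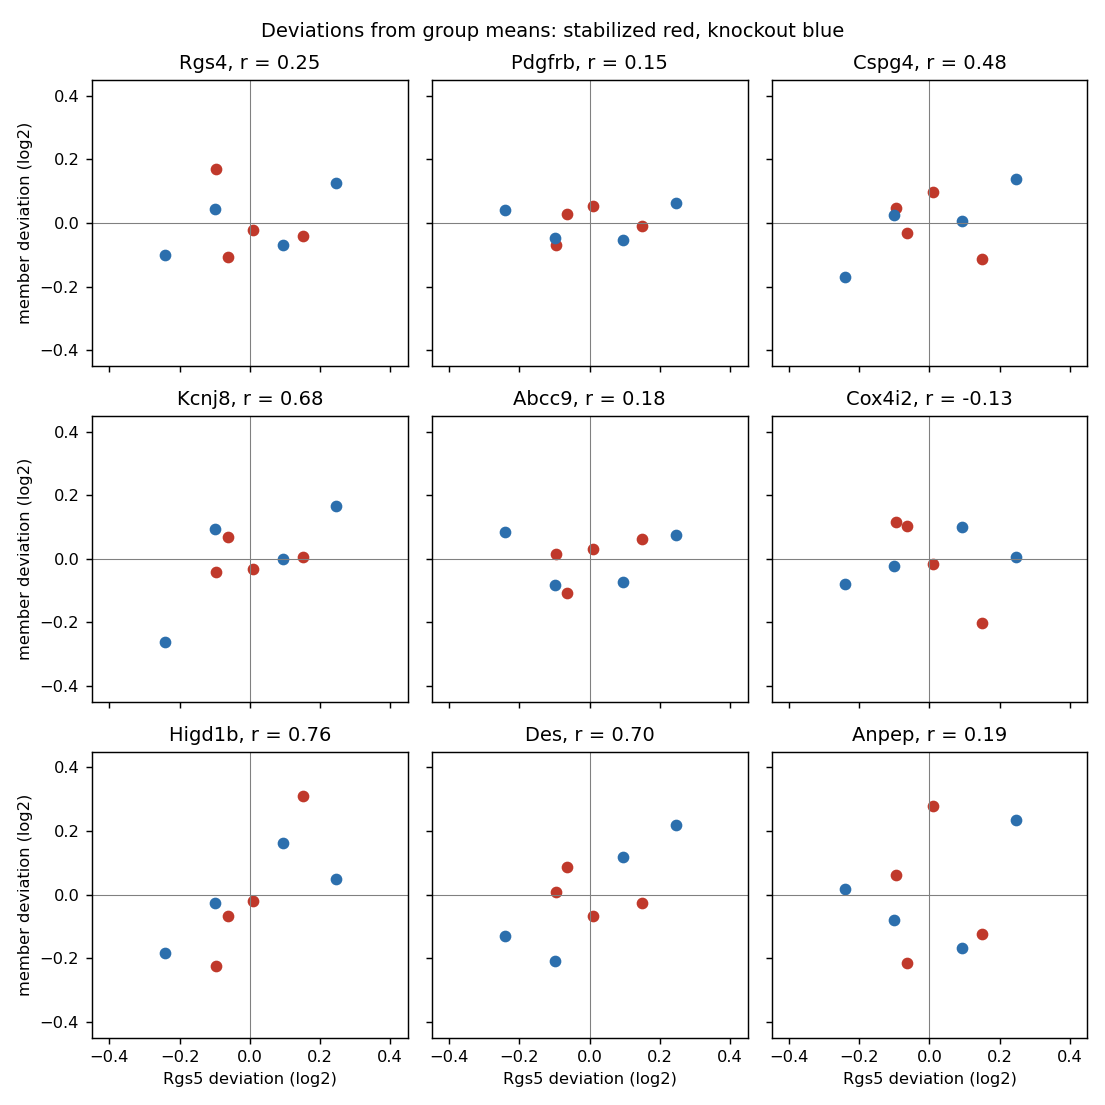
Deviation of each of 9 members from its group mean (log2, vertical axis) against that of Rgs5 (log2, horizontal axis) in the 4 stabilized (red) and 4 knockout (blue) lungs, with Pearson's r. Higd1b, at r = 0.76, is the closest, and none of the 9 passed after adjustment.

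By the same measure, the genes most like Rgs5 among those with a mean log2 value of at least 6 were Nepro (r = 0.99), the tRNA modification gene Osgep (r = 0.99), Sfrp2 (r = 0.97), Gem (r = 0.97) and the cAMP phosphodiesterase gene Pde8a (r = 0.97), each over 8 arrays and described with no test. They are the extremes of 11079 ranked genes. Of these 5, Gem, a small GTPase that restrains calcium channels, rose by 0.40 ± 0.11 (SE, limma adjusted p = 0.041), and its call was lost in the fits without stabilized replicate 1, 2 or 4 or knockout replicate 1, 2 or 4 (highest adjusted p = 0.11). The other 4 did not pass, and Sfrp2, a secreted Wnt modulator, had a difference of -0.20.

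Of 18 other measured RGS genes 0 rose, 1 fell and 17 did not pass, with a median difference of -0.02, a count near the 9.62% called among all genes. The mean log2 level of 9 of the 18, Rgs22 among them, was under 6, where a change is harder to see. Rgs22 fell by 0.92 ± 0.08 (SE, limma adjusted p = 2.4e-05). Rgs16, on the same chromosome and similar in structure to Rgs4 and Rgs5, had a mean of 6.36 ± 0.20 with stabilized and 6.005 ± 0.16 with deleted beta-catenin (SD, n = 4). Its difference of 0.36 ± 0.10 (SE) narrowly missed the threshold (adjusted p = 0.051) and passed after centring arrays on their medians, after repeated quantile normalization, with dim genes left out, with a trended prior, and without stabilized replicate 2 or knockout replicate 2 (lowest adjusted p = 0.020). Of 9 G protein alpha subunits, the substrates of RGS proteins, Gnai3 rose by 0.26 ± 0.07 (SE, adjusted p = 0.041), a call lost whenever 1 array was left out, other than stabilized replicate 4 (highest adjusted p = 0.12), and 8 did not pass. Rgs4, Rgs5 and Rgs16 proteins are degraded through oxidation of an N-terminal cysteine, and of 4 measured genes of that pathway 0 passed, also at an unadjusted p under 0.05, Ate1, its arginyltransferase gene, having the smallest p (adjusted p = 0.44).

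Among 19 other mural cell genes on the array 3 rose, where 4.65% of all genes were called higher, 0 fell and 16 missed the threshold. The median difference of the list was 0.08, and 15 of the 19 had a difference above 0, against 9539 of all 19937 genes. This lean was not particular to mural genes. Differences were also above 0 in 12 of 15 smooth muscle, 14 of 18 endothelial and 13 of 15 fibroblast genes. Aspn, which encodes the matrix protein asporin, was 7.97, 8.66, 7.88 and 7.99 in the stabilized lungs, replicates 1 to 4, and 7.09, 7.30, 6.73 and 7.36 in the knockout lungs, a rise of 1.01 ± 0.17 (SE, limma adjusted p = 0.0025). Enpep, the aminopeptidase that converts angiotensin II, rose by 0.38 ± 0.07 and Gja4, a gap junction gene of vessels that endothelium also expresses, rose by 0.31 ± 0.09 (SE, adjusted p = 0.0052 and 0.045). The call of Gja4 was lost without stabilized replicate 1, 3 or 4 or knockout replicate 2, 3 or 4 (highest adjusted p = 0.12). Notch3, the Notch receptor of mural cells, was at 8.98 in both groups, with a difference of 0.01 that took the other sign in 7 of 16 alternatives (adjusted p = 0.98). With each array left out 2 to 4 mural genes were called, and 0 in the 4 arrays with low Xist, 2 per group. There Aspn, Enpep and Gja4 differed by 0.94, 0.36 and 0.29, and with Xist as a covariate their calls held.

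In the PDGF system, the ligand genes Pdgfa, Pdgfb, Pdgfc and Pdgfd did not pass. Of 6 measured ligand and receptor genes other than Pdgfrb 2 rose, where 4.65% of all genes were called higher. Pdgfrl, which encodes a secreted protein resembling the receptor, was 6.62, 6.64, 6.63 and 6.76 in the stabilized lungs, replicates 1 to 4, and 5.76, 5.56, 5.78 and 5.71 in the knockout lungs, and rose by 0.96 ± 0.07 (SE, limma adjusted p = 5.1e-06). Pdgfra, the receptor of lung fibroblasts, rose by 0.33 ± 0.06 (SE, limma adjusted p = 0.0054). In the 4 arrays with low Xist, 2 per group, 1 of the 6 was called. Of 14 genes for signals between pericytes and endothelium, the TGF-beta receptor gene Tgfbr1 rose by 0.28 ± 0.07 (SE, limma adjusted p = 0.025). The other 13 did not pass, where 9.62% of all genes were called. The call of Tgfbr1 was lost without stabilized replicate 1 or 2 or knockout replicate 1 or 4 (highest adjusted p = 0.082).

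Markers of the neighbouring cell types moved to different degrees. Of all genes 9.62% were called and 4.65% were called higher, and the smooth muscle and endothelial counts lie near these shares. Of 15 smooth muscle genes 0 passed in limma, with a median of 0.10, and 2 passed after centring each array on its median, Mylk, the myosin light chain kinase gene with the smallest p (0.21, adjusted p = 0.063), among them. Unadjusted, the p-values of Mylk, Tagln and Cnn1, the latter pair chosen after their values were seen, were 0.0069, 0.0088 and 0.041, and those of the other 12 were above 0.05. Of 18 endothelial genes, Esam, a junction gene, rose by 0.24 ± 0.07 (SE, limma adjusted p = 0.039) and 17 did not pass. That call was lost whenever 1 array was left out, other than knockout replicate 4 (highest adjusted p = 0.11). The median difference of the list was 0.13, and 14 of the 18 differences were above 0. Egfl7, Sox18, Vwf, Car4, Aplnr and Gpihbp1, named after their values were seen, were also higher at an unadjusted p under 0.05 in limma.

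Of 15 fibroblast genes 7 rose and 0 fell, with a median of 0.26, where 4.65% of all genes were called higher. Wnt2, a ligand of lung mesenchyme, Fgfr4 and the mesenchymal transcription factor gene Tcf21 rose by 0.64, 0.41 and 0.64 (limma adjusted p = 7.3e-04, 0.0017 and 0.0033). The mean level of the fibroblast list was 10.02 to 10.15 in stabilized and 9.69 to 9.85 in knockout lungs. In the 4 arrays with low Xist, 2 per group, 0 of its genes were called. There Wnt2, Fgfr4 and Tcf21 differed by 0.51, 0.31 and 0.37, and with Xist as a covariate their calls held. Lymphocyte markers went the other way, with 8 of 9 called lower, against 4.96% of all genes. Their mean level was 5.98 to 6.24 in stabilized and 7.07 to 7.71 in knockout lungs. Cd79a, Cd79b and Ccl5 differed by -1.86, -1.35 and -1.95 (limma adjusted p = 2.3e-06, 2.5e-06 and 1.3e-05). Of 11 lung epithelial genes the airway genes Cyp2f2, Foxj1 and Scgb1a1 fell by 0.92, 0.62 and 0.51 (adjusted p = 1.8e-05, 3.8e-04 and 0.0014), Epcam, named after its value was known, was higher by 0.31, and 7 did not pass. These lists moved alongside Rgs5 and Rgs4, and their part in the differences of both genes was not tested.

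**Figure D5:**
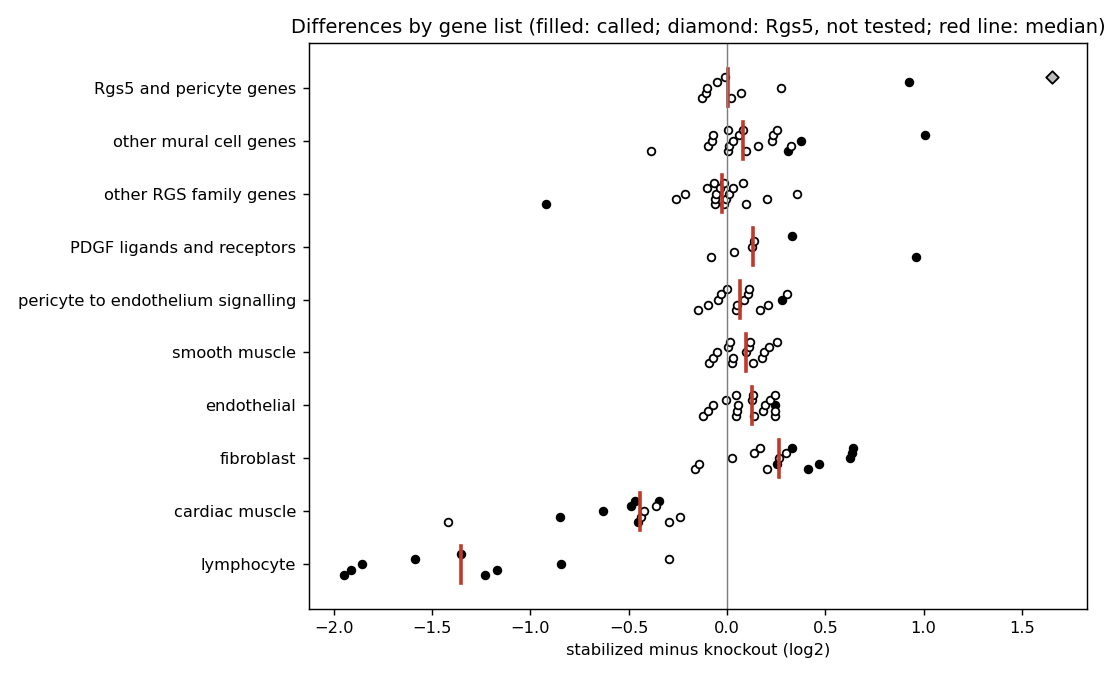
Differences between stabilized and knockout lungs (log2, horizontal axis) for each measured gene of 10 lists, with a red line at the median of each list; filled circles were called, open circles were not, and the diamond is Rgs5. The medians are 0.00 for the 10 members, 0.08 for other mural cell genes, 0.10 for smooth muscle, 0.13 for endothelial, 0.26 for fibroblast and -0.44 for cardiac muscle genes.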

How the data were processed

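RMA and affy are named, without versions, per the submitters' processing notes. The deposited values are log2 expression for 34760 probe sets, made by the authors. RMA subtracts background, quantile-normalizes arrays and summarises probes, so a shift shared by all genes is removed. The genome build of the probes is not given in the sources used here, so promoter coordinates are those of RefSeq. Symbols came from the platform annotation (21640 probe sets with 1 symbol, 1321 with several, 11799 with none), and 1 probe set per gene, the brightest, gave 19937 genes.

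Stabilized minus knockout was fitted with limma 3.58.1 (R 4.3.3, lmFit, eBayes) on all 8 arrays with no covariate, with Benjamini-Hochberg adjustment over all genes. SE and 95% intervals are limma's. The precision is limited by 4 arrays per group. The p-values rest on the spread between these mice, which limma moderates for each gene towards that of all genes. Within-group correlations used an exact permutation test over arrays. They were repeated, as planned, without the arrays farthest from the median level of Rgs5, which the difference between the groups decides. A repeat without the arrays with the largest deviations of Rgs5 was chosen after seeing the data. Genes outside the members were named by a rule of up to 3 called genes per list, or the one with the smallest p. The members, lists and rules were chosen with earlier results of these data known. The fit was tested on simulated data for this comparison over 19937 genes. It recovered 88% of 100 genes changed by 0.5 and 99% of 100 changed by 1, with 15 unchanged genes called. Noise was drawn independently for each gene, so these rates need not hold where genes vary together. Far fewer genes were changed than the 1917 called in the data, so the rates need not hold for the real fit.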

Additional observations from a re-analysis of the deposited data

Results flagged for a closer look

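In 7 of 106 groups of 4 arrays, taken over 53 named genes, 1 array stood apart from the other 3 by more than Dixon's limit, a rule that flags about 1 in 20 groups by chance. None was a group of the 10 members. Stabilized replicate 2 stood apart in 4 of them. It was high for Aspn (8.66 against 7.88 to 7.99), Gnai3 (9.49 against 9.25 to 9.27) and Osgep (7.54 against 7.44 to 7.45), and low for Notch3 (8.80 against 9.03 to 9.07). Stabilized replicate 4 was high for Pdgfrl (6.76 against 6.62 to 6.64) and low for Cd79a (5.07 against 5.48 to 5.54). Stabilized replicate 1 was high for Tcf21 (10.11 against 9.78 to 9.84).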

How the results depend on the processing

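The differences of Rgs5 and Rgs4 kept their direction, and Rgs4 its call, in all 16 alternatives, and no other member was called in any. Without the arrays with high Xist, 354 genes were called, and 0 mural, endothelial, fibroblast and cardiac muscle genes, each group then holding 2 arrays. Smooth muscle calls were 2 and endothelial calls 3 with arrays centred on their medians (61.2% of all calls higher, against 48.4% without), with genes under 6 left out and with a trended prior, and endothelial calls were 0 after repeated quantile normalization. Leaving out each array in turn gave 1216 to 1839 called genes, 2 to 4 mural, 0 to 1 smooth muscle, 0 to 1 endothelial, 6 to 7 fibroblast and 4 to 8 cardiac muscle calls. Why these counts moved was not tested. Deviations of same-numbered arrays of the 2 groups correlated at -0.01 to 0.08, a range given without a test. The labels do not say whether these arrays share more than a number. With the replicate number as a block 1828 genes were called, 1646 of them shared, and Rgs4 remained called (adjusted p = 7.0e-05). In that blocked fit the call of Gja4, Esam, Lyz2 and Gem was lost and that of Hsd17b7 gained, and 0 of 9 pairs with Rgs5 passed, although its 24 arrangements allow no p under 0.042. With Xist as a covariate 1775 genes were called, 1711 of them shared with the fit without it. The pair tests were not run with dim genes left out, with the trended prior or without the high Xist arrays, where too few arrays remain.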
